A study of Homo sapiens with 9 samples.

Results

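Interferon-stimulated genes are the genes whose transcription rises when a cell receives an interferon, and most of their products act against viruses. A list of 45 of them was followed in the human liposarcoma line LiSa-2 on Affymetrix U133 Plus 2.0 expression arrays. Each gene was represented by the probe set that carries its symbol alone and has the highest mean over the 9 arrays. Of the 45 genes, 44 had such a probe set and all 44 passed the filter on low values, among 13842 of 19775 genes that did. STAT2 is not analysed here.

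The study compared 3 groups of 3 arrays. The control cells received phosphate-buffered saline (PBS) and were taken at 24 h. The other cells were given hyaluronidase from bovine testes (HAase), which breaks down the matrix polysaccharide hyaluronan, at 400 µg/mL for 6 h or for 24 h. All groups were the same cell line in medium with 10% bovine serum, with no genetic change stated. There was no PBS group at 6 h, so a difference between 6 h of hyaluronidase and PBS cannot be told apart from a difference in time in culture. The labels do not say whether the arrays of a group came from separate cultures, and the p-values cover the spread among these arrays alone, which may be technical.

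Type I and type III interferons bind receptors that activate JAK kinases, and the transcription factors STAT2 and IRF9 then enter the nucleus as part of a complex that binds the interferon-stimulated response element (ISRE) in the promoters of target genes. Interferon gamma acts through a different receptor and the gamma-activated site (GAS), and IRF1 is one of its early targets. Some interferon-stimulated genes can also be switched on without interferon, by IRF factors downstream of nucleic acid sensors or by inflammatory signals.

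The promoters of the genes were examined first, because the ISRE is the feature by which the family is usually recognised. RefSeq promoter sequences (build GRCh38.p14) were matched by symbol for 35 of the 44 genes, as windows of 300 bases around each listed start. The ISRE core, GAAA followed by any 2 bases and GAAA, was searched on both strands and found for 25 of the 35 genes (71.4%), against 4.38% of 27305 genes in the same table. The GAS core TTCNNNGAA, also searched on both strands, was found for 11 (31.4%, against 9.38%). An exact NF-kappaB site, searched in a pair of common spellings, was found for 1 gene, OAS3 (2.86%, against 0.407%). The ISRE core was present for 4 of 7 genes that were higher at 24 h of hyaluronidase, for 17 of 23 that were lower and for 4 of 5 that were not called. A match describes the letters of the window and does not show that a factor binds there.

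The 6 windows below, each the 250 bases before a start and written 5′ to 3′ on the gene's strand, belong to genes with different courses in these arrays and were chosen after their values were seen. Capitals mark matches to the ISRE or GAS core, and adjoining matches share one run of capitals. IFIT1 (chr10:89392373-89392622, plus strand) has 2 ISRE cores that begin 116 and 103 bases before the start, and its transcript was lower at both times. IFIT3 (chr10:89327747-89327996, plus strand) has 2 that begin 156 and 122 bases before the start, and its transcript was higher at both times. RSAD2 (chr2:6877527-6877776, plus strand), higher at 24 h, has 1 ISRE core at 145 bases. BST2 (chr19:17405631-17405880, minus strand), lower at both times, has overlapping ISRE cores at 130 and 124 bases and GAS cores at 136 and 58 bases, the first of which overlaps an ISRE core. IRF1 (chr5:132490774-132491023, minus strand), higher at both times, has a GAS core at 124 bases and no ISRE core. GBP1 (chr1:89065209-89065458, minus strand), higher at 6 h and lower at 24 h, has 1 ISRE core at 127 bases. Of these genes, IFIT3 and RSAD2 have 2 starts in the table, and the start with more matches (RSAD2) or, with equal matches, the lower coordinate (IFIT3) is shown.
IFIT1: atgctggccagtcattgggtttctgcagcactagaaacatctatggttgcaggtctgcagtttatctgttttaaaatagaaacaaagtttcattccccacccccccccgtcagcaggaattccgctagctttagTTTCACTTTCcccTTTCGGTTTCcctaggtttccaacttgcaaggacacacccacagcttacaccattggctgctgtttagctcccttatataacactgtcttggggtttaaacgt
IFIT3: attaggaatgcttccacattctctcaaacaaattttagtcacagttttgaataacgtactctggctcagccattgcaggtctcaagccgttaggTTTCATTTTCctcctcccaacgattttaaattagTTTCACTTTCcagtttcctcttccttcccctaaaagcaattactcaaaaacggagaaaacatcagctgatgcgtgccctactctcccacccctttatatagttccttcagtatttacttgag
RSAD2: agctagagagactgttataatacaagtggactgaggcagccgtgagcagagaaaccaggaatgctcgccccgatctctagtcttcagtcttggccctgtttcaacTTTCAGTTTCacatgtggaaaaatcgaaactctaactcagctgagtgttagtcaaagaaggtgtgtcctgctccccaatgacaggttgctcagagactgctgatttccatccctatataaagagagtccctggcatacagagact
BST2: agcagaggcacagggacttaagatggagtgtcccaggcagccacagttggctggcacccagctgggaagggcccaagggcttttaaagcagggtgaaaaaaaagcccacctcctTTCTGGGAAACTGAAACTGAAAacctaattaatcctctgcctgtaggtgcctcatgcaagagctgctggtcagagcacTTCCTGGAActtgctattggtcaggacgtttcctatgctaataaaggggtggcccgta
IRF1: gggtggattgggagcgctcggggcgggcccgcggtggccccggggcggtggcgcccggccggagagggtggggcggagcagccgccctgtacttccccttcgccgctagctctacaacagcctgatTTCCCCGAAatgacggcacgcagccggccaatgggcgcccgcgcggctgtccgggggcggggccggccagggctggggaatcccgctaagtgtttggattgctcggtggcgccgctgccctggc
GBP1: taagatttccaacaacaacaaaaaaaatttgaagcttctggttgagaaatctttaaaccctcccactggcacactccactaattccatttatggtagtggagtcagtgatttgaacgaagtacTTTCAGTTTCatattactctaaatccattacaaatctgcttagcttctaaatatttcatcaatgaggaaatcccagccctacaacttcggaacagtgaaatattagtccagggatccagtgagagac

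After 24 h of hyaluronidase most of the interferon-stimulated genes were lower than in PBS, while a smaller set was higher. TRIM22, IFITM1, BST2, IFI27 and MX1 were each more than 4-fold lower, and RSAD2, IFIT2, OASL, ISG20 and IFIT3 were more than 2-fold higher. By limma, 28 of the 44 genes were lower at an adjusted p under 0.05 (63.6%) and 9 were higher (20.5%). Over all 13842 genes tested, 22.8% were lower and 17.5% higher, 40.3% in either direction. The median log2 fold change was -0.63 over the 44 genes and -0.03 over all genes. Of the calls, 16 were lower and 5 higher by 2-fold or more, as were 4.25% and 4% of all genes. All 3 arrays at 24 h lay outside the range of PBS for 29 lower and 9 higher genes, against 28.9% and 23.1% of all genes (52.0% in either direction). In whole cultures like these, fewer cells that express a gene and less RNA per cell cannot be told apart.

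At 6 h the list was split, with 12 genes higher (27.3%) and 13 lower (29.5%). Over all genes tested, 15.0% were higher and 27.4% lower, 42.4% in either direction. The share of members that were lower was thus near that of all genes. The median log2 fold change was -0.13, against -0.08 over all genes. Only OASL, IRF1 and GBP1 were higher by 2-fold or more among the members, and IFIT1 was lower by that much. Of all genes, 3.38% were called higher and 3.22% lower by 2-fold or more, so 1 of 44 lower is no more than the background. Arrays did not overlap for 12 higher and 18 lower genes, against 19.7% and 34.5% of all genes (54.2% in either direction).

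Between 6 h and 24 h of hyaluronidase, 30 of the 44 genes fell (68.2%) and 6 rose (13.6%). Over all genes the balance was the other way, with 13.3% lower and 19.7% higher (33.0% in either direction). The median log2 fold change was -0.55, against 0.05 over all genes. Of the calls, 13 were lower and 4 higher by 2-fold or more, as were 2.32% and 1.71% of all genes. Arrays did not overlap for 31 lower and 7 higher genes, against 18.4% and 27.5% of all genes (45.9% in either direction). Across the 3 comparisons, 42 genes passed the test at least once and 15 passed it every time, against 58.3% and 12.9% of all genes. The comparisons share arrays, so their results are given side by side and not set against each other.

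**Figure D1:**
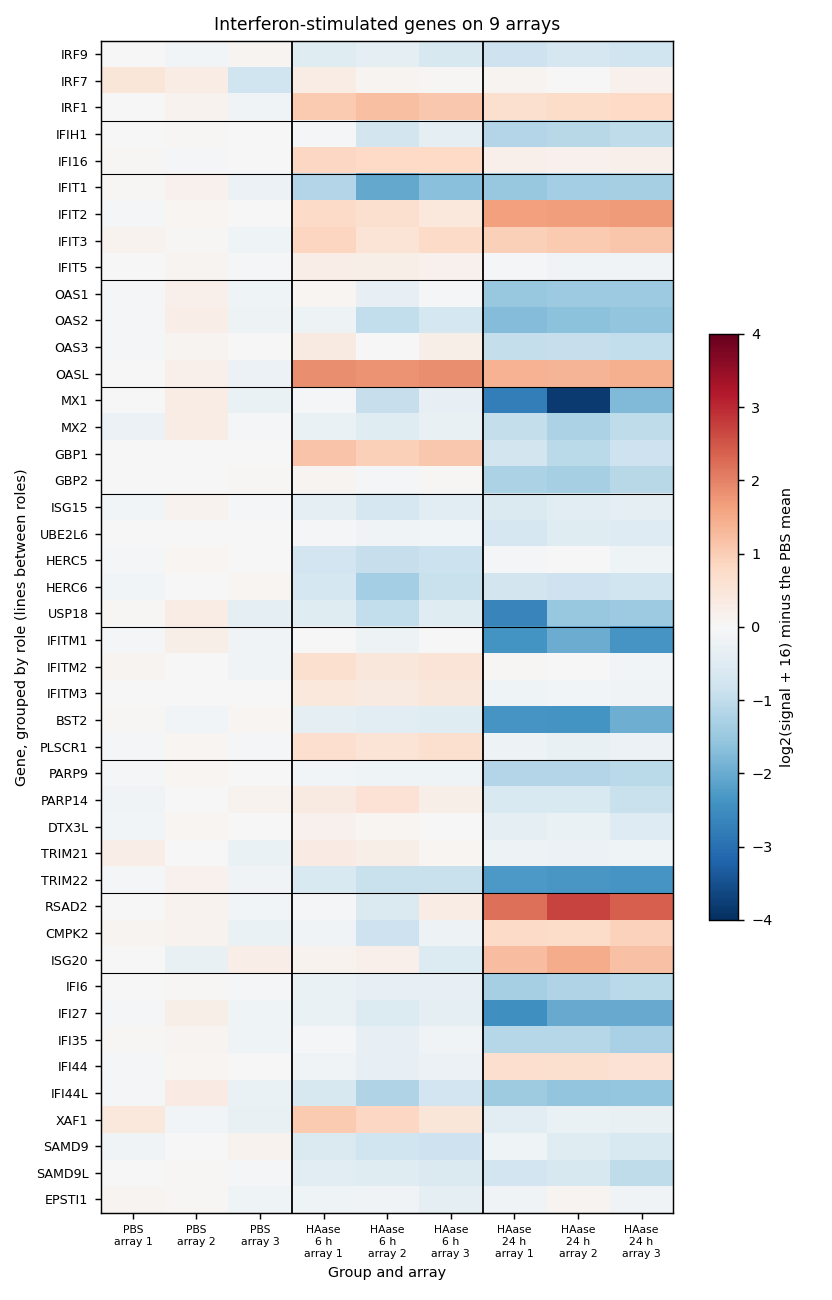
Heat map of the 44 interferon-stimulated genes (rows, grouped by role) on the 9 arrays (columns, 3 per group), coloured by log2(signal + 16) minus the PBS mean of the gene. Most rows are blue in the 3 arrays at 24 h, while RSAD2, CMPK2, ISG20, IFIT2, IFIT3, OASL, IRF1 and IFI44 are red there and GBP1 is red at 6 h alone.

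The courses over the 2 times fell into several classes. The most common, with 13 genes (29.5% of the members, against 6.7% of all genes tested), was no call at 6 h and a lower level at 24 h: IFIH1, OAS1, OAS3, MX1, MX2, GBP2, UBE2L6, USP18, IFITM1, PARP9, DTX3L, IFI27 and IFI35. A further 11 genes (25%, against 15.3%) were lower at both times: OAS2, BST2, TRIM22, IFI6, IFI44L, SAMD9L, IRF9, IFIT1, ISG15, HERC6 and SAMD9. Both times were higher for 5 genes (11.4%, against 10.2%): IFIT2, IFIT3, OASL, IRF1 and IFI16. RSAD2, CMPK2 and ISG20 were higher at 24 h alone, and IFIT5, IFITM2 and XAF1 at 6 h alone (6.82% of the members each, against 6.44% and 3.94% of all genes). GBP1, IFITM3, PLSCR1 and PARP14 were higher at 6 h and lower at 24 h (9.09% of the members, against 0.816% of all genes). IFI44 took the opposite course (2.27%, against 0.845%), and HERC5 was lower at 6 h alone (2.27%, against 11.3%). TRIM21, IRF7 and EPSTI1 passed the test at neither time (6.82%, against 44.5%). These are classes of calls, and a gene without a call at a time is not shown to be level there.

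**Figure D2:**
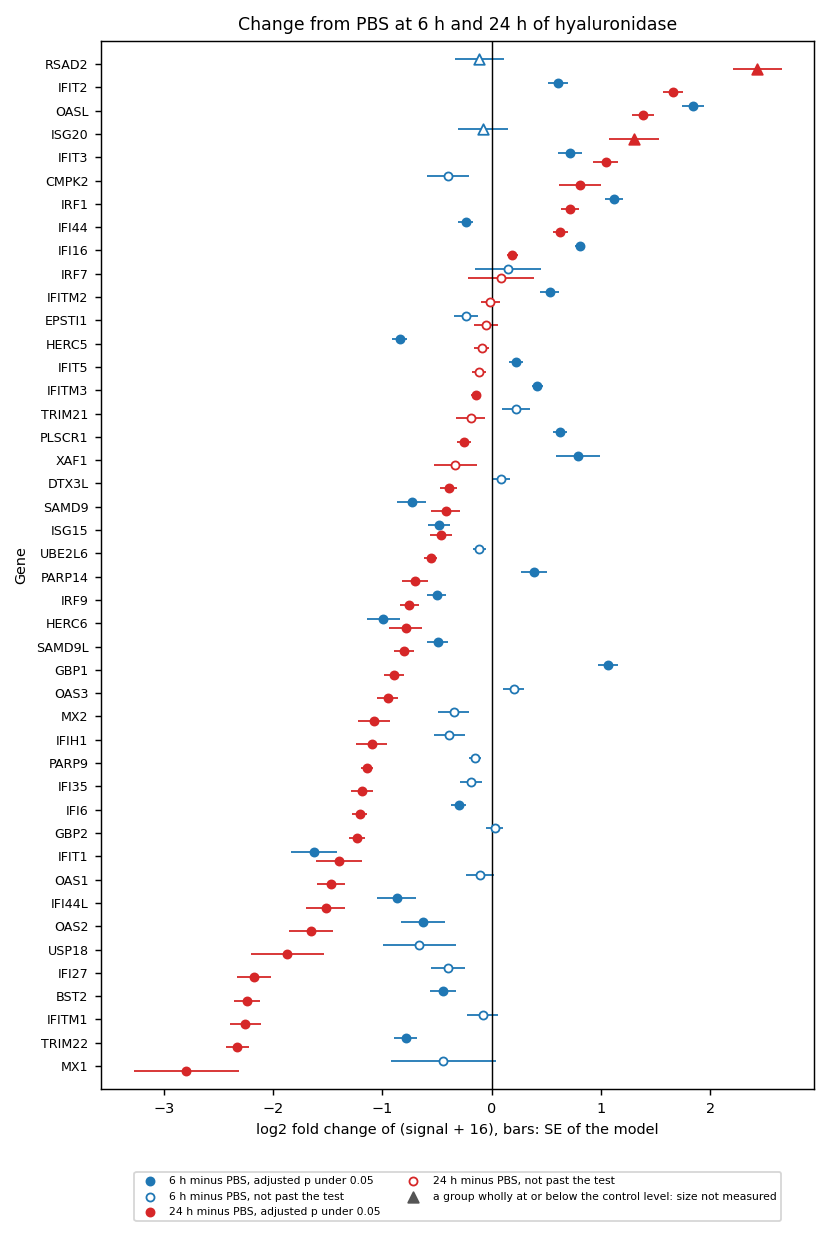
Log2 fold change of (signal + 16) from PBS (x axis) for each of the 44 genes (y axis, ordered by the change at 24 h) at 6 h in blue and at 24 h in red, with bars for the model's standard error and filled points for an adjusted p under 0.05. Triangles mark RSAD2 and ISG20, in which PBS lay wholly at or below the control level, so that their position is no measured size. At 24 h TRIM22 (-2.33) and IFITM1 (-2.25) lie far to the left and IFIT2 (1.66) to the right, and at 6 h the points run from -1.62 for IFIT1 to 1.84 for OASL.

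Of the transcription factors, IRF1 rose, IRF9 fell and IRF7 passed no test. IRF1, which activates many interferon-stimulated genes and is itself induced by interferon gamma and NF-kappaB, gave signals of 488, 536 and 447 in PBS, 1029, 1150 and 1060 at 6 h and 771, 818 and 863 at 24 h (probe set 202531_at). The 3 groups did not overlap, with 6 h highest. IRF1 was 2.17-fold higher at 6 h (log2 fold change 1.12 ± 0.08, SE; adjusted p = 2.9e-05) and 1.65-fold higher at 24 h (adjusted p = 0.000242), and fell 1.32-fold between the times (adjusted p = 0.00761). IRF9, the DNA-binding subunit of the complex that acts at the ISRE, gave signals of 1282, 1176 and 1385 in PBS, 906, 971 and 820 at 6 h and 720, 801 and 735 at 24 h. All hyaluronidase arrays lay below all PBS arrays, with IRF9 1.42-fold lower at 6 h (adjusted p = 0.00243) and 1.69-fold lower at 24 h (adjusted p = 0.000268). The difference between the times did not pass the test (adjusted p = 0.0604), and did so without 6 h replicate 3 (0.0403). IRF7, the main amplifier of type I interferon production, gave signals of 365, 321 and 140 in PBS, 314, 279 and 264 at 6 h and 278, 250 and 290 at 24 h. PBS replicate 3 lay far below the other PBS arrays, and the log2 fold change was 0.09 ± 0.30 (SE) at 24 h.

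The cytosolic sensor of double-stranded RNA IFIH1 (MDA5) fell at 24 h. It gave signals of 655, 680 and 650 in PBS, 622, 394 and 515 at 6 h and 286, 296 and 321 at 24 h, and the 24 h arrays lay below all others. The change was 2.14-fold lower at 24 h (log2 fold change -1.10 ± 0.14, SE; adjusted p = 0.000549). At 6 h the log2 fold change was -0.39 (adjusted p = 0.0632), and without 6 h replicate 1 it passed the test (0.0102). It also passed at 6 h with the mean of its probe sets (-0.45, adjusted p = 0.00722). The dimmer probe set 216020_at was lower at 6 h (-0.78, adjusted p = 0.00642), with no further fall to 24 h by the test (-0.03, adjusted p = 0.919). The DNA sensor IFI16 was 1.75-fold higher at 6 h (adjusted p = 1.06e-05) by its main probe set, 208966_x_at. That probe set is of the type that can bind transcripts of related genes. Another, 208965_s_at, gave a log2 fold change of 0.60 at 6 h without passing the test (adjusted p = 0.0526). At 24 h the probe sets of IFI16 disagreed. The main one was 1.14-fold higher (log2 fold change 0.19, adjusted p = 0.0171, and 0.0595 without PBS replicate 2). Probe set 208965_s_at was lower (log2 fold change -0.74, adjusted p = 0.0232).

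The IFIT family, whose members bind viral RNA and form complexes with each other, split by gene. IFIT1, which recognises RNA without the host's cap methylation, gave signals of 2170, 2384 and 1771 in PBS, 922, 499 and 648 at 6 h and 728, 812 and 820 at 24 h (probe set 203153_at). All hyaluronidase arrays of IFIT1 lay below all PBS arrays. It was 3.08-fold lower at 6 h (log2 fold change -1.62 ± 0.21, SE; adjusted p = 0.000542) and 2.63-fold lower at 24 h (adjusted p = 0.00111), and the 2 times did not differ by the test (adjusted p = 0.457). IFIT3, which binds and stabilises IFIT1, gave signals of 2028, 1885 and 1623 in PBS, 3338, 2664 and 3129 at 6 h and 3561, 3846 and 4002 at 24 h. The 3 groups of IFIT3 did not overlap, in the order PBS, 6 h, 24 h. It was 1.64-fold higher at 6 h (adjusted p = 0.00136) and 2.06-fold higher at 24 h (log2 fold change 1.04 ± 0.11, SE; adjusted p = 0.000164), and its second probe set gave 0.97 at 24 h (adjusted p = 0.000735). The difference between the times missed the threshold (adjusted p = 0.0567), and passed it without PBS replicate 3 (0.0427) or 6 h replicate 1 (0.0484).

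IFIT2, which can promote apoptosis when it is not bound by IFIT3, rose further. Its signals were 203, 221 and 209 in PBS, 370, 338 and 287 at 6 h and 685, 703 and 719 at 24 h. The groups did not overlap and were in the same order as for IFIT3. IFIT2 was 1.52-fold higher at 6 h (adjusted p = 0.00106) and 3.16-fold higher at 24 h (log2 fold change 1.66 ± 0.09, SE; adjusted p = 3.51e-06). Its dimmer probe set 217502_at passed the test at neither time (log2 fold change 0.27 at 6 h, adjusted p = 0.509, and 0.77 at 24 h, adjusted p = 0.0676). The call at 6 h was also lost with the mean of both probe sets (0.0547). IFIT5 was 1.17-fold higher at 6 h (adjusted p = 0.024), a call absent when PBS replicate 1 or 3, or 6 h replicate 1 or 2, was left out (0.0617 to 0.0765).

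**Figure D3:**
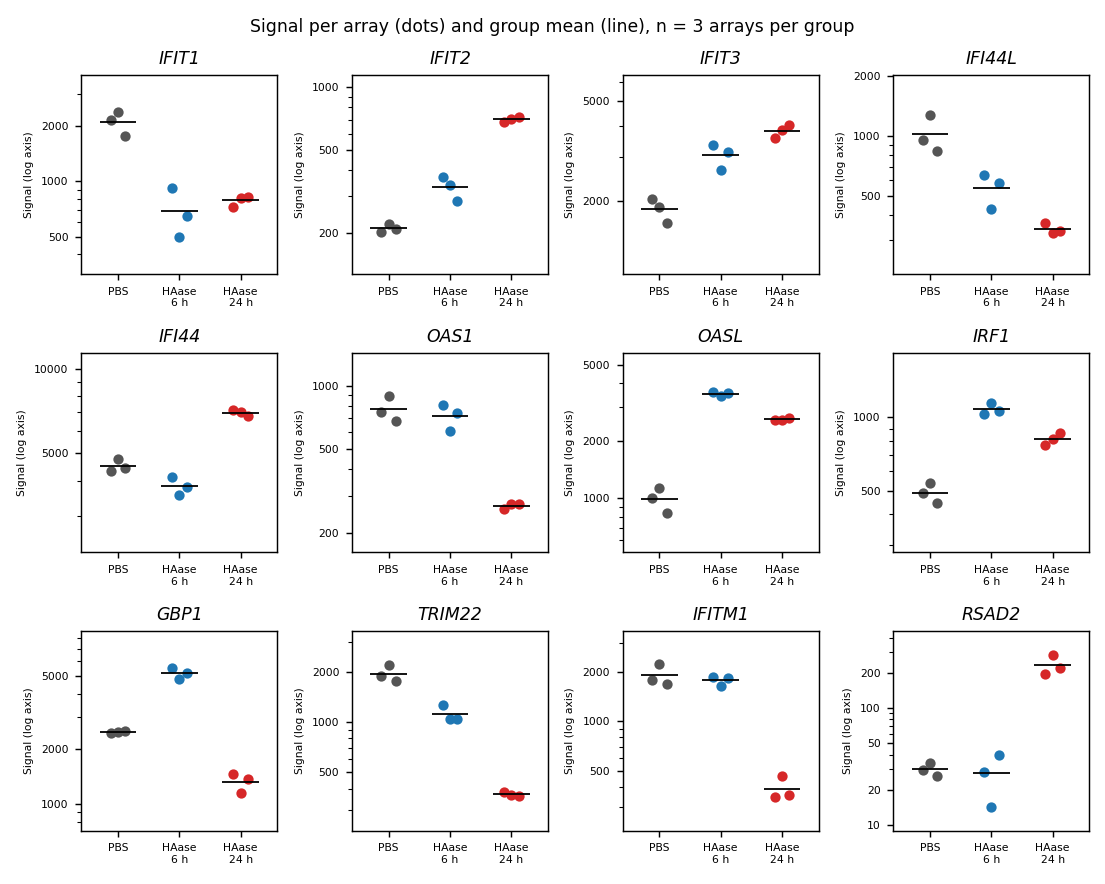
Signal (log axis) of 12 of the genes on each array (dots, 3 per group) with the group mean (line) in PBS, at 6 h and at 24 h of hyaluronidase. IFIT1 falls while IFIT2 and IFIT3 rise, IFI44L falls while IFI44 rises at 24 h, and GBP1 rises to between 4822 and 5497 at 6 h before falling to between 1147 and 1461 at 24 h.

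In the OAS family, the enzymes OAS1, OAS2 and OAS3 fell at 24 h and OASL rose. OAS1, OAS2 and OAS3 make oligoadenylate messengers that activate the RNA-degrading enzyme RNase L. OAS1 gave signals of 751, 898 and 678 in PBS, 811, 612 and 740 at 6 h and 258, 274 and 274 at 24 h. PBS and 6 h overlapped and the 24 h arrays lay below both, 2.76-fold lower than PBS (log2 fold change -1.47 ± 0.13, SE; adjusted p = 5.14e-05). OAS2 gave signals of 293, 369 and 261 in PBS, 265, 147 and 180 at 6 h and 79.7, 86.1 and 92.1 at 24 h. It was 3.15-fold lower at 24 h (adjusted p = 0.000366), though its dimmest probe set, 206553_at, gave -0.53 (adjusted p = 0.211). At 6 h the groups of OAS2 overlapped, and its 1.54-fold lower level (adjusted p = 0.0384) was no longer called without PBS replicate 1 or 2, 6 h replicate 2 or 3, or any 24 h replicate (0.0542 to 0.12).

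OAS3 gave signals of 1622, 1879 and 1704 in PBS, 2239, 1732 and 2038 at 6 h and 890, 904 and 870 at 24 h. It was 1.93-fold lower than PBS at 24 h (adjusted p = 0.000142) and 2.22-fold lower than at 6 h (adjusted p = 0.000103). At 6 h it was not called (log2 fold change 0.20, adjusted p = 0.144), and it passed as higher without 6 h replicate 2 (0.0266). OASL, a relative that lacks the enzyme activity and enhances signalling by the RNA sensor RIG-I, gave signals of 998, 1130 and 832 in PBS, 3623, 3424 and 3577 at 6 h and 2578, 2557 and 2627 at 24 h. The 3 groups of OASL did not overlap, with 6 h highest. It was 3.58-fold higher at 6 h (log2 fold change 1.84 ± 0.10, SE; adjusted p = 6.5e-06) and 2.62-fold higher at 24 h (adjusted p = 1.99e-05), and both its probe sets passed at both times.

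The 4 GTPases, MX1, MX2, GBP1 and GBP2, were all lower at 24 h, as were 22.8% of all genes. MX1, a dynamin-like protein that blocks the nucleocapsids of influenza and other viruses, gave signals of 420, 523 and 349 in PBS, 407, 215 and 335 at 6 h and 49.3, 14.7 and 112 at 24 h. Only 1 of the 3 arrays at 24 h lay above the control level, the brightest of 27 Bacillus subtilis control probe sets on the same array, so the size of the fall is uncertain. The model gave a 6.93-fold lower level (log2 fold change -2.79 ± 0.48, SE; adjusted p = 0.00236). MX2, which restricts HIV, gave signals of 249, 367 and 290 in PBS, 244, 209 and 241 at 6 h and 146, 116 and 139 at 24 h. It was 2.11-fold lower at 24 h (adjusted p = 0.000591) and was not called at 6 h (adjusted p = 0.0872; 0.034 without PBS replicate 1).

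GBP1, a guanylate-binding protein that coats pathogens in the cytosol, rose at 6 h and fell below PBS at 24 h. Its signals were 2428, 2458 and 2494 in PBS, 5497, 4822 and 5188 at 6 h and 1461, 1147 and 1366 at 24 h (probe set 202270_at). No group overlapped another, with 6 h above and 24 h below PBS. GBP1 was 2.09-fold higher at 6 h (log2 fold change 1.06 ± 0.09, SE; adjusted p = 7.39e-05) and 1.86-fold lower at 24 h (adjusted p = 0.000151), with a difference between the times of -1.96 ± 0.09 (log2, SE; adjusted p = 7.42e-06). Of its 4 probe sets, the 3 that passed the filter gave the same directions. GBP2 gave signals of 987, 994 and 1043 in PBS, 1087, 965 and 1033 at 6 h and 411, 391 and 463 at 24 h, with PBS and 6 h overlapping and 24 h below both. It was 2.35-fold lower at 24 h (adjusted p = 7.35e-06).

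ISG15, a ubiquitin-like protein that is attached to other proteins, and the enzymes of its cycle were lower or not called. ISG15 was 1.4-fold lower at 6 h (adjusted p = 0.00691) and 1.38-fold lower at 24 h (adjusted p = 0.00835). UBE2L6, its conjugating enzyme, was 1.47-fold lower at 24 h (adjusted p = 0.000203). HERC5, its ligase, was 1.79-fold lower at 6 h (adjusted p = 5.16e-05) and had returned to signals between 1343 and 1500 at 24 h, beside 1447 to 1602 in PBS. The related HERC6 was 1.99-fold lower at 6 h and 1.73-fold lower at 24 h (adjusted p = 0.00141 and 0.00436). USP18, which removes ISG15 and restrains the type I interferon receptor, gave signals of 235, 279 and 174 in PBS, 155, 105 and 156 at 6 h and 22.5, 69.2 and 71.6 at 24 h. All 3 groups of USP18 were separate, and 2 of 3 arrays at 24 h lay above the control level. It was 3.66-fold lower at 24 h than in PBS (log2 fold change -1.87 ± 0.33, SE; adjusted p = 0.00284). Its fall from 6 h to 24 h (adjusted p = 0.0265) was lost without 6 h replicate 1 or 3 (0.0781 and 0.0783), and it passed as lower at 6 h without 24 h replicate 1 (0.0352).

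Among the membrane proteins, IFITM1 and BST2 fell several-fold at 24 h. IFITM1, which blocks the entry of enveloped viruses at the cell surface, gave signals of 1791, 2232 and 1701 in PBS, 1866, 1648 and 1855 at 6 h and 345, 466 and 353 at 24 h. PBS and 6 h overlapped, and IFITM1 was 4.77-fold lower at 24 h (log2 fold change -2.25 ± 0.14, SE; adjusted p = 8.38e-06). BST2 (tetherin), which holds budding virions at the cell surface, gave signals of 266, 235 and 268 in PBS, 193, 182 and 177 at 6 h and 37.6, 35.4 and 53.5 at 24 h. No group of BST2 overlapped another, and 1 of 3 arrays at 24 h lay above the control level. The model gave a 4.72-fold lower level at 24 h (adjusted p = 3.02e-06). The 1.36-fold lower level at 6 h (adjusted p = 0.0171) did not survive the loss of PBS replicate 1 or 3 or 6 h replicate 3 (0.0535 to 0.055).

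IFITM2, IFITM3 and PLSCR1 were higher at 6 h by 1.44-fold, 1.34-fold and 1.55-fold (adjusted p = 0.00178, 0.000286 and 0.000166). IFITM2 and IFITM3 act against viruses in endosomes, and PLSCR1 is a phospholipid scramblase. The probe sets of IFITM2 and IFITM3 are of the type that can bind transcripts of related genes, so the 2 cannot be fully told apart. At 24 h, IFITM2 was not called (adjusted p = 0.936). IFITM3 was 1.1-fold lower (adjusted p = 0.0472), a call lost on leaving out any of the 9 arrays (0.0553 to 0.131). PLSCR1 was 1.19-fold lower (adjusted p = 0.0152), lost without PBS replicate 2 or 24 h replicate 2 (0.0512 each).

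Among the ADP-ribosylation and TRIM proteins, TRIM22 and PARP9 fell most at 24 h. TRIM22, a ubiquitin ligase that restricts HIV transcription, gave signals of 1869, 2182 and 1752 in PBS, 1270, 1040 and 1038 at 6 h and 383, 369 and 360 at 24 h. The groups of TRIM22 were separate, in falling order from PBS. It was 1.72-fold lower at 6 h (adjusted p = 0.000671) and 5.02-fold lower at 24 h (log2 fold change -2.33 ± 0.11, SE; adjusted p = 1.46e-06). PARP9 gave signals of 1025, 1117 and 1064 in PBS, 984, 953 and 939 at 6 h and 463, 470 and 498 at 24 h. It was 2.2-fold lower at 24 h (adjusted p = 1.92e-06), and its second probe set 227807_at gave a smaller change (log2 fold change -0.40, adjusted p = 0.0442). DTX3L, the ubiquitin ligase that pairs with PARP9, was 1.31-fold lower at 24 h (adjusted p = 0.00536).

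PARP14, a mono-ADP-ribosyltransferase, gave signals of 273, 307 and 335 in PBS, 395, 461 and 359 at 6 h and 194, 192 and 158 at 24 h. No group overlapped another, with 6 h above and 24 h below PBS. It was 1.31-fold higher at 6 h (adjusted p = 0.0321), a call absent when PBS replicate 1 or 2, or 6 h replicate 1 or 2, was left out (0.0658 to 0.101). At 24 h it was 1.63-fold lower (log2 fold change -0.70, adjusted p = 0.00222), but its dimmer probe set 232610_at gave 0.47 (adjusted p = 0.0865). TRIM21, the cytosolic antibody receptor, differed between 24 h and 6 h alone (1.33-fold lower, adjusted p = 0.0417). That call was lost without PBS replicate 2, 6 h replicate 1 or 2, or any 24 h replicate (0.0624 to 0.122), and without PBS replicate 3 TRIM21 passed as lower at 24 h than in PBS (0.044).

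RSAD2, CMPK2 and ISG20, enzymes that act on nucleotides or RNA, were the 3 genes higher at 24 h and not called at 6 h. RSAD2 (viperin), which makes a chain-terminating nucleotide from CTP, gave signals of 29.4, 34.1 and 26.4 in PBS, 28.6, 14.4 and 40.1 at 6 h and 194, 285 and 222 at 24 h (probe set 242625_at). All PBS arrays and 2 of 3 arrays at 6 h lay at or below the control level, and all 24 h arrays lay above it. By this probe set RSAD2 was at least 3.8-fold higher at 24 h, measured against the control level (adjusted p = 7.53e-05). For its other probe set, 213797_at, the log2 fold change was 1.10 (adjusted p = 0.0465). Without 24 h replicate 2 or 3 that other probe set had the higher mean and was used, with log2 fold changes of 1.29 (adjusted p = 0.043) and 1.09 (adjusted p = 0.0937). With a pseudocount of 1 that other probe set was again the one used, and the call at 24 h was lost (log2 fold change 1.32, adjusted p = 0.0872).

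CMPK2, a mitochondrial nucleotide kinase whose gene lies next to RSAD2, gave signals of 269, 271 and 204 in PBS, 220, 131 and 210 at 6 h and 433, 421 and 476 at 24 h. The 24 h arrays lay above all others, 1.75-fold higher than PBS (adjusted p = 0.0103) and 2.31-fold higher than at 6 h (log2 difference 1.21 ± 0.19, SE; adjusted p = 0.00208). ISG20, an exonuclease that degrades viral RNA, gave signals of 40.1, 29 and 51.1 in PBS, 44.8, 47.1 and 21.5 at 6 h and 116, 139 and 109 at 24 h. No PBS array and 1 of 3 arrays at 6 h lay above the control level. ISG20 was at least 2.1-fold higher at 24 h than in PBS by this probe set, 33304_at (adjusted p = 0.00241). Its other probe set, 204698_at, gave only 7.65, 14 and 21.6 at 24 h, below the filter, and was not tested.

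The remaining genes are known mainly by their induction, and 6 of the 9 were lower at 24 h (66.7%, against 22.8% of all genes). IFI27, a small mitochondrial membrane protein, gave signals of 1790, 2200 and 1638 in PBS, 1546, 1262 and 1420 at 6 h and 324, 448 and 444 at 24 h. It was 4.5-fold lower at 24 h (log2 fold change -2.17 ± 0.16, SE; adjusted p = 1.87e-05). At 6 h all arrays lay below PBS without passing the test (adjusted p = 0.0732), and it passed without 24 h replicate 1 (0.0382). IFI6, which protects the endoplasmic reticulum from flaviviruses, gave signals of 5721, 5872 and 5568 in PBS, 4761, 4582 and 4558 at 6 h and 2280, 2460 and 2680 at 24 h. The groups of IFI6 were separate, with 24 h 2.31-fold below PBS (adjusted p = 4.09e-06). IFI35 gave signals of 854, 906 and 742 in PBS, 785, 654 and 748 at 6 h and 367, 372 and 329 at 24 h, a 2.28-fold lower level at 24 h (adjusted p = 4.22e-05).

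The neighbouring and related genes IFI44L and IFI44 went opposite ways at 24 h. IFI44L gave signals of 954, 1266 and 841 in PBS, 637, 432 and 581 at 6 h and 365, 326 and 333 at 24 h. The groups of IFI44L were separate, in falling order from PBS, with a 1.83-fold lower level at 6 h (adjusted p = 0.00558) and a 2.86-fold lower level at 24 h (adjusted p = 0.0003). Its fall between the times (adjusted p = 0.0259) was lost without 6 h replicate 1 or 3 or 24 h replicate 2 or 3 (0.0697 to 0.0821). IFI44 gave signals of 4324, 4779 and 4436 in PBS, 4117, 3556 and 3804 at 6 h and 7130, 6994 and 6781 at 24 h. IFI44 was 1.54-fold higher at 24 h (log2 fold change 0.63 ± 0.07, SE; adjusted p = 0.000203), and its second probe set gave 0.68 (adjusted p = 0.0128). Its 1.18-fold lower level at 6 h (adjusted p = 0.0252) was not called when PBS replicate 2 or 3, or 6 h replicate 2 or 3, was left out (0.0515 to 0.0843), and its second probe set gave a log2 fold change near 0 there (adjusted p = 0.987).

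XAF1, which opposes the apoptosis inhibitor XIAP, gave signals of 98.9, 64.1 and 54 in PBS, 163, 136 and 105 at 6 h and 48.8, 55.3 and 53.9 at 24 h. The 6 h arrays were the highest, 1.72-fold above PBS (adjusted p = 0.015), and 1 array in each of the other groups lay at or below the control level. That call was lost without PBS replicate 2 (0.0508), and probe set 242234_at gave no such rise (log2 fold change 0.08, adjusted p = 0.845). The paralogues SAMD9 and SAMD9L, translation-repressing antiviral proteins, were 1.66-fold and 1.41-fold lower at 6 h (adjusted p = 0.00311 and 0.00429) and 1.34-fold and 1.74-fold lower at 24 h (adjusted p = 0.0368 and 0.000323). The call of SAMD9 at 24 h was lost without PBS replicate 2 or 3, 6 h replicate 2, or 24 h replicate 2 or 3 (0.0514 to 0.114). The fall of SAMD9L from 6 h to 24 h (adjusted p = 0.0398) was lost without any single array other than 24 h replicate 2 (0.0551 to 0.117). Both other probe sets of SAMD9L were lower at 24 h and neither passed the test at 6 h (adjusted p = 0.0773 and 0.23). EPSTI1 was near the control level in every group, above it on 2 of 3 arrays each, and passed no test.

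Many of these genes lie side by side. In the order of coding genes in a RefSeq table of GRCh38.p14, 25 of the 44 genes formed 15 pairs of neighbours with at most 1 other coding gene between them. At 24 h, 10 pairs had the same call in both genes, among them OAS1 with OAS3, OAS3 with OAS2, MX1 with MX2, GBP1 with GBP2 and CMPK2 with RSAD2. The 2 pairs with opposite calls were IFI44L with IFI44, and IFIT3 with IFIT1. In the remaining 3 pairs, IFIT1 with IFIT5, IFITM2 with IFITM1 and HERC6 with HERC5, 1 gene was not called. The share of same calls among pairs that are not neighbours was not computed, and 63.6% of the 44 genes were lower at 24 h. The counts are thus a description of shared loci alone, and neighbours are not independent of each other.

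The rest of the interferon pathway was described from lists of ligands, receptors, transducers, sensors and further interferon-stimulated genes. Of 18 interferon ligand genes with a probe set, 12 lay at or below the control level on all 9 arrays, IFNB1 and IFNG among them, which does not show that they are absent. Only IFNA17 and IFNL1 were bright enough to be tested. IFNL1, a type III interferon, gave signals of 13.3, 7.36 and 26.2 in PBS, 41, 30.2 and 70.8 at 6 h and 52.6, 60.5 and 48.2 at 24 h, above the control level on 0, 1 and 2 arrays. It passed the test at 6 h (adjusted p = 0.0197) and at 24 h, where it was at least 1.07-fold higher (adjusted p = 0.00936).

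Of the 6 receptor genes tested, 2 were higher and 1 lower at 6 h, and 2 were higher and none lower at 24 h. The shares called in either direction were 50% and 33.3%, against 42.4% and 40.3% of all genes. IFNGR2, the signalling chain of the interferon gamma receptor, gave signals of 1350, 1383 and 1160 in PBS, 6314, 5787 and 6642 at 6 h and 3638, 3629 and 3818 at 24 h. The groups of IFNGR2 were separate, with a 4.77-fold higher level at 6 h (log2 fold change 2.26 ± 0.08, SE; adjusted p = 7.38e-07) and a 2.83-fold higher level at 24 h (adjusted p = 4.09e-06). Its partner IFNGR1 was 1.39-fold higher at 6 h (adjusted p = 0.000229). IFNLR1, the specific chain of the type III receptor, was 1.42-fold lower at 6 h (adjusted p = 0.035) and 1.77-fold higher at 24 h (adjusted p = 0.00406). The type I receptor genes IFNAR1 and IFNAR2 passed no test.

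Among 10 JAK-STAT transducers and inhibitors tested, 4 were higher and none lower at 6 h, and 3 were higher and 1 lower at 24 h. That is 40% called at each time, near the 42.4% and 40.3% of all genes. SOCS3, an inhibitor of cytokine receptor signalling, was 9.19-fold higher at 6 h (mean signal 4892 ± 251, against 519 ± 46.4 in PBS; SD, n = 3 each; limma adjusted p = 2.51e-07) and 6.5-fold higher at 24 h (adjusted p = 4.3e-07). STAT3 was 1.49-fold higher at 6 h and 1.79-fold lower at 24 h (adjusted p = 0.000192 and 1.84e-05). PTPN2, a phosphatase that acts on JAK and STAT proteins, was 1.48-fold and 1.38-fold higher (adjusted p = 0.000166 and 0.000378), JAK1 was 1.2-fold higher at 6 h (adjusted p = 0.0088) and PTPN6 1.4-fold higher at 24 h (adjusted p = 0.017). SOCS1, a feedback inhibitor of interferon signalling, was not called at either time.

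Among 15 genes of nucleic acid sensing and interferon induction tested, 4 were higher and 3 lower at 6 h, and 2 were higher and 2 lower at 24 h. The share called was near that of all genes at 6 h (46.7%, against 42.4%) and below it at 24 h (26.7%, against 40.3%). TRAF3, an adaptor of antiviral signalling, was 1.98-fold higher at 6 h and 1.46-fold higher at 24 h (adjusted p = 0.000101 and 0.00194). STING1, the adaptor of DNA sensing, was 1.48-fold and 1.75-fold higher (adjusted p = 0.00262 and 0.000363), whereas MAVS, the adaptor of RNA sensing, was 1.52-fold and 1.42-fold lower (adjusted p = 6.64e-05 and 0.00013). TLR3, an endosomal RNA receptor, was 1.74-fold lower at 6 h and at least 1.44-fold lower at 24 h (adjusted p = 0.0045 and 0.000202), with 1 and 0 arrays above the control level. IRF8 was 2.16-fold higher at 6 h (adjusted p = 0.00234), and TRIM25, a ubiquitin ligase that acts on RIG-I, was 1.37-fold higher there (adjusted p = 0.00135).

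In a list of further interferon-stimulated genes, of which 29 were tested, 3 were higher and 7 lower at 6 h, and 2 were higher and 8 lower at 24 h. At 6 h, 10.3% were higher and 24.1% lower, against 15.0% and 27.4% of all genes. At 24 h, 6.9% were higher and 27.6% lower, against 17.5% and 22.8%, and 34.5% were called in either direction, against 40.3%. The median log2 fold change at 24 h was -0.22, against -0.63 for the 44 genes. GBP3 was 3.08-fold higher at 6 h and 1.57-fold higher at 24 h (adjusted p = 1.93e-07 and 1.74e-05), where GBP1 and GBP2 were lower. TNFSF10, the death ligand TRAIL, was 2.67-fold lower at 6 h and 4.83-fold lower at 24 h (adjusted p = 6.82e-05 and 3.51e-06), with 1 of 3 arrays at 24 h above the control level. TRIM5 was 1.81-fold lower at 6 h and 2.06-fold lower at 24 h (adjusted p = 0.000283 and 7.8e-05). LY6E was 1.81-fold lower at 24 h (adjusted p = 0.000369), and HELZ2 was 1.87-fold higher at 6 h (adjusted p = 0.0249). The chemokine CXCL10, often used as an interferon readout, was called in neither comparison with PBS, and was lower at 24 h than at 6 h (adjusted p = 0.0299) with 1 of 3 arrays at 24 h above the control level.

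**Figure D4:**
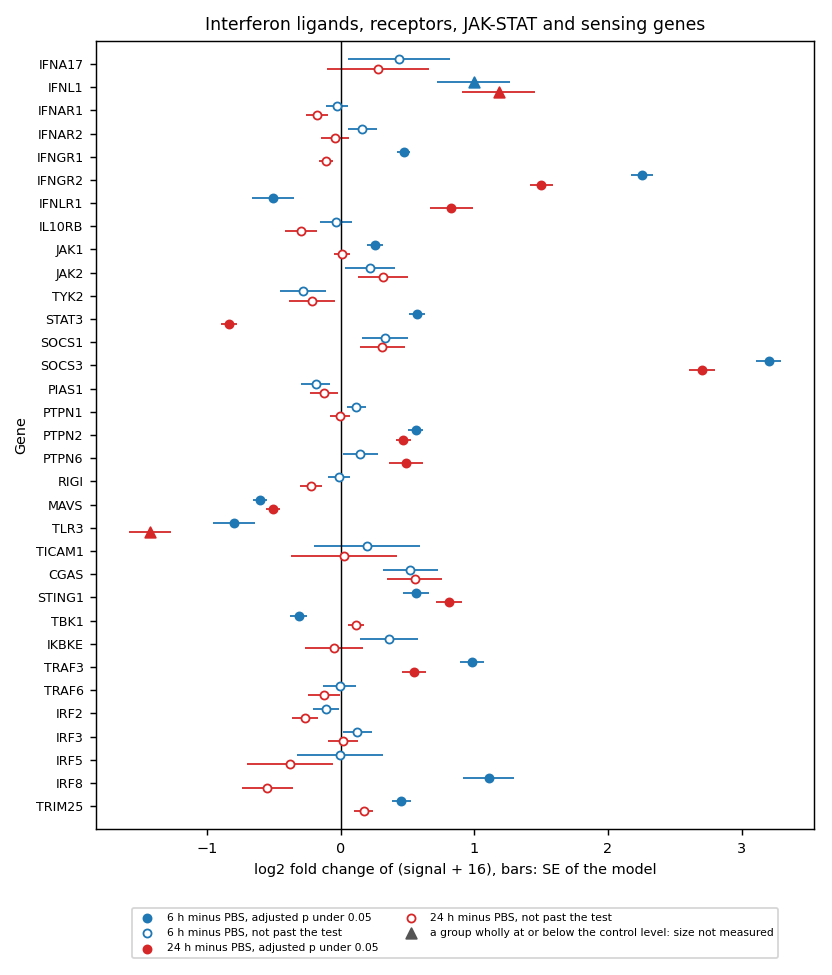
Log2 fold change of (signal + 16) from PBS (x axis) of the tested interferon ligand, receptor, JAK-STAT and sensing genes (y axis) at 6 h in blue and 24 h in red, with bars for the model's standard error and filled points for an adjusted p under 0.05. SOCS3 (3.20 and 2.70) and IFNGR2 (2.26 at 6 h) lie furthest to the right. Triangles mark IFNL1 and TLR3 where a group lay wholly at or below the control level, so that their position there is no measured size.

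Several other measures moved with the groups. Arrays of a group correlated at r of 0.9869 to 0.9892 across genes, and arrays of different groups at no more than 0.9793. Of adipocyte markers, all 7 tested were lower at 24 h (22.8% of all genes) and 5 at 6 h (71.4%, against 27.4%). The summed signal of the 8 listed was 56740 to 58800 in PBS, 44700 to 46880 at 6 h and 28970 to 33580 at 24 h, with LEP above the control level on no array. Most of that sum was FABP4 (means of 33295, 31931 and 26097), which was 1.28-fold lower at 24 h. Leukocyte markers summed to 357.9 to 416.3, 474.9 to 511 and 990.2 to 1064, with PTPRC and LYZ above the control level on no array. Most of the rise to 24 h was in CD163 (means of 81.2, 150 and 508). Of the 4 leukocyte genes tested, 3 were higher at 24 h (75%, against 17.5% of all genes), and ITGAM was not called (adjusted p = 0.63). Sums of 6 plasmacytoid dendritic cell markers were 2168 to 2382, 1692 to 1864 and 1434 to 1783, with CLEC4C and IL3RA above the control level on no array. Most of that sum was TCF4, which many other cell types express (1899 to 2114, 1185 to 1199.7 and 1197 to 1487), while IRF8, the other marker tested, was higher at 6 h as given above. Epithelial marker sums were 694.6 to 989.4, 640.2 to 721 and 795.8 to 976.3, with EPCAM, CDH1 and KRT19 above the control level on no array. Within that sum, KRT14 was at least 5.34-fold lower at 24 h (adjusted p = 0.000134) and KRT7 was 1.93-fold higher (adjusted p = 0.00395). KRT8 and KRT18 were not called there. Endothelial sums were 276.7 to 341.9, 373.9 to 427.2 and 420.3 to 442.4, with TEK and CDH5 above the control level on no array. Most of the endothelial sum was PECAM1 (means of 236, 316 and 349), the only marker of that list tested, while VWF had means of 51.7, 27.4 and 12.8. The 3′ minus 5′ log2 signal of GAPDH averaged 0.01, -0.02 and -0.11 in PBS, at 6 h and at 24 h, and that of ACTB 1.64, 1.37 and 1.52. Within the 6 h group, replicate 1 was the highest array for 36 of the 44 genes (32.4% of all genes) and replicate 2 the lowest for 27 (31.7%), and within PBS replicate 2 was the highest for 28 (35.7%). The part of these measures in the results was not tested.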

How the data were processed

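The deposited table holds linear signal intensity per probe set for 9 arrays, which the series design text says the authors derived from CHP files. How probes were summarised is not given in the sources used here. With 2% trimmed from each end, every array had a mean of 500.07 to 500.075, which shows a scaling per array. Medians were 55.83 to 61.31, and precision is limited by the small number of arrays. Of 54675 probe sets, 62 were controls, 41091 had 1 gene symbol in GEO's platform annotation, 1801 had several and 11721 are unnamed here.

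No normalization was added. Signals were turned into log2(signal + 16), which understates the changes of dim genes. The probe set with the highest mean stood for each gene, and genes below the 30th percentile (a signal of 32.2) were left out. A model with 1 mean per group was fitted across all genes with lmFit and eBayes of limma 3.58.1 (R 4.3.3), with Benjamini-Hochberg adjustment over 13842 genes and a threshold of 0.05. The script was tested on simulated data. A group with all arrays at or below the control level (34.2 to 65 over the arrays) has only a bound, written "at least".

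The members, lists and tests were chosen with earlier results of these data known. Values on every array are given for transcription factors and for members past the test with a 2-fold change or more, and up to 6 genes past the test per pathway list by largest change over the 3 comparisons. Genes shown by sequence, and IFI44, IFNL1 and IFNGR2 on every array, were chosen after their values were seen. Samples with the same replicate number did not deviate together over all genes tested (correlations of -0.049 to 0.037). The labels do not say whether the numbers pair the samples, and these correlations cannot settle it. The alternatives were the pseudocount, filter, normalization, probe set rule, variance model, the groups in the fit, a replicate block, and leaving out each array.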

Additional observations from a re-analysis of the deposited data

Results flagged for a closer look

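In 5 genes the calls against PBS at 6 h and at 24 h had opposite directions, and the 2 times also differed in the direct comparison. Of all genes tested, 0.816% were called higher at 6 h and lower at 24 h, and 0.845% the other way. Both calls use the same PBS arrays. The log2 difference of 24 h minus 6 h was -1.96 for GBP1 (adjusted p = 7.42e-06), -0.56 for IFITM3 (0.0001), -0.88 for PLSCR1 (4.74e-05) and -1.09 for PARP14 (0.000355), each higher than PBS at 6 h and lower at 24 h on all 3 arrays. It was 0.86 for IFI44 (7.14e-05), which was lower than PBS at 6 h and higher at 24 h on all 3 arrays. One of the 2 calls against PBS was lost on leaving out single arrays for IFITM3, PLSCR1, PARP14 and IFI44, and neither was for GBP1. A second probe set of PARP14, 232610_at, gave a log2 fold change of 0.47 at 24 h (adjusted p = 0.0865). For 24 h minus 6 h that probe set gave -0.08 (adjusted p = 0.788). With the mean of its probe sets, PARP14 was not called at 24 h (-0.12, adjusted p = 0.516). For IFI44 at 6 h a second probe set gave -0.0046 (214059_at, adjusted p = 0.987).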

How the results depend on the processing

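Over all alternatives, 96 of 132 calls (44 genes in 3 comparisons) stayed on the same side of the threshold and in the same direction, and 36 changed under at least 1. Of 2565 single-gene values under alternatives, 115 lost a call, 25 gained one and 4 reversed. The reversals came from the choice of probe set: IFI16 at 24 h minus PBS was -0.12 (log2, adjusted p = 0.337) as the mean of its probe sets and -0.74 (0.0232) for 208965_s_at, PARP14 at 24 h minus PBS was 0.47 (0.0865) for 232610_at, and XAF1 at 24 h minus 6 h was 0.37 (0.376) for 242234_at. Requiring a 1.5-fold change left 7 of the 13 genes lower at 6 h, and the share of all genes at that size is not given here. On leaving out single arrays, the counts higher and lower were 8 to 9 and 25 to 27 at 24 h minus PBS, 10 to 12 and 10 to 14 at 6 h minus PBS, and 6 to 7 and 26 to 29 at 24 h minus 6 h. With the replicate number as a block, the counts were 9 and 26, 12 and 11, and 6 and 28. The labels do not say whether the numbers pair the samples. Other scaling of the arrays moved the median of all genes by less than 0.1 (log2). Pathway and marker genes outside the 44 were not run under alternatives. Signals near the control level limit MX1, BST2, USP18, RSAD2, ISG20, XAF1 and EPSTI1.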
